A study of Mus musculus with 6 samples.

Results

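The IL-1 family cytokines and receptors examined here were 8 genes, Il1a, Il1b, Il1rn, Il33, Il18, Il1r1, Il1rl1 and Il1rap. They were chosen by name from the 54532 genes of the deposited count table, and all 8 were present. RNA was sequenced from tumour cells of Balb/c mice that carried the transplantable mammary tumour 2208L, with no treatment recorded. The CTC group (n = 3) held circulating tumour cells that had been propagated after recovery from blood, and the PT group (n = 3) held cells of the primary tumour, enriched for tumour cells after its dissociation. The label of each PT library matches it with the CTC library of the same number, and the design text speaks of matched mice, with no age of the mice and no length of propagation on record here. The labels mention propagation for CTC cells alone, and therefore handling and group cannot be told apart. Values of a group run in the order of replicates 1, 2 and 3 throughout.

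IL-1 family cytokines are alarm signals released by stressed or dying cells and by activated leukocytes. IL-1α and IL-1β bind the receptor Il1r1, which then recruits the accessory chain Il1rap and, through the adaptor Myd88, activates NF-κB. Il1rn encodes an antagonist that occupies Il1r1 without signalling, IL-33 acts through Il1rl1 (also called ST2) with the same accessory chain, and IL-18 acts through Il18r1 and Il18rap. In mammary tumours, IL-1 is known as an inducer of chemokines and of G-CSF, which draw and expand neutrophils, and the title of the series names neutrophils as its subject.

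The one large signal in the family was Il1a in CTC replicate 1, at 101.8 CPM, 26.7 times the next highest library. The same library had the lowest level of the antagonist gene Il1rn, most of the few reads of Il1b, and the highest levels of the IL-18 receptor genes and of most IL-1 target genes. CTC replicate 2 had part of this pattern, with the only other reads of Il1b, Il1rn below every PT library and the IL-18 receptor genes above every PT library, but Il1a at the level of PT replicate 2. CTC replicate 3 had none of it. No member passed the test between the groups. In such bulk libraries, fewer cells of a type and less RNA per cell cannot be told apart. Levels are given as CPM, that is, counts divided by the TMM-scaled size of the library and brought to one common size. Library totals ran from 23951093 to 27897320 counts in CTC and from 23845953 to 27371166 counts in PT, and 3 counts, the upper limit that a count of 0 allows, corresponded to 0.107 to 0.129 CPM. Changes are log2 fold changes, CTC minus PT, from the quasi-likelihood test of edgeR on the counts, with p-values adjusted by Benjamini-Hochberg over all 13874 genes tested and a threshold of 0.05.

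Of the 8 members, 7 passed the filter on low counts and Il1b did not. The test called 0 of these 7, and 0% of all genes tested. The smallest adjusted p was 0.726 among members and 0.611 among all genes. At an unadjusted p under 0.05 there were 0 of 7 members and 919 of the 13874 genes. DESeq2 also called 0 members, while calling 0.595% of genes, and with the matched pairs as a replicate block it called 0 members and 1.72% of genes. limma-voom called 0 members and 0 genes, as did edgeR with the block. Where low counts were not filtered out, edgeR called 2 members, Il1a (adjusted p = 0.0279) and Il1b (adjusted p = 0.0325), and 0.728% of genes. Only Il33 separated the groups in all libraries, 1 of the 7 tested members (14.3%), against 12.1% of all genes tested (5.95% higher and 6.16% lower in CTC).

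**Figure D1:**
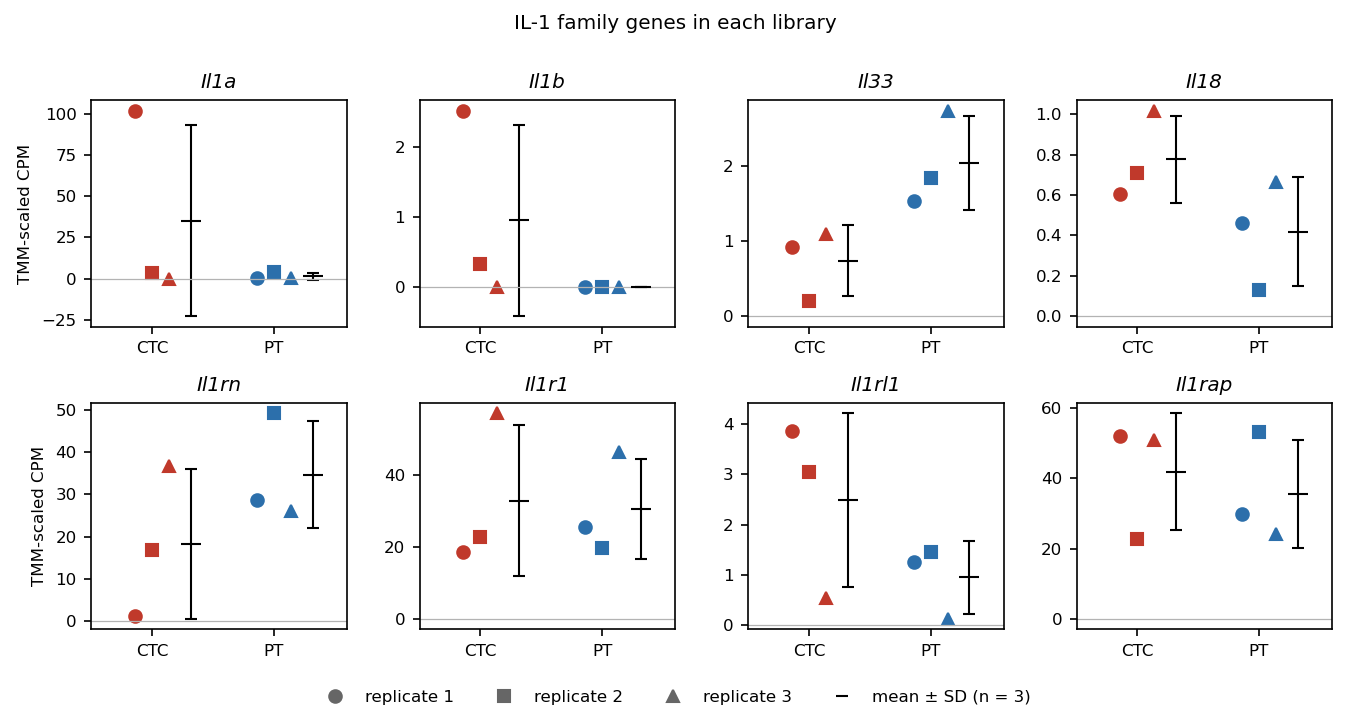
Level of each of the 8 members in the 6 libraries, in TMM-scaled CPM on a linear axis that differs between panels, with CTC in red, PT in blue, a symbol per replicate, and black bars for the mean ± SD of 3 libraries. Il1a reached 101.8 CPM in CTC replicate 1 and no more than 3.82 CPM elsewhere, and Il33 was lower in all 3 CTC libraries than in all 3 PT libraries.

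Compared per kilobase of gene length, the antagonist and the receptor chains of IL-1 were the most expressed members. Their medians over the 6 libraries were 4.95 CPM per kb for Il1rn, 3.81 for Il1r1 and 3.54 for Il1rap. Il1a followed at 0.913 CPM per kb, with a range from 0.0198 to 51.6. Il18 had a median of 0.615, Il33 of 0.455 and Il1rl1 of 0.198 CPM per kb, and Il1b was at 0 counts in 4 of the 6 libraries. Neighbours in this order had overlapping ranges over the libraries, whereas the lowest Il1rap value (2.00 CPM per kb) lay above the highest value of Il18 (0.987).

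Il1a encodes IL-1α, which is active without cleavage and can be held on the cell surface (ENSMUSG00000027399, chromosome 2, 129299610 to 129309972, minus strand, GRCm38). It had 2868, 80 and 1 counts in CTC replicates 1, 2 and 3, and 7, 89 and 3 counts in PT replicates 1, 2 and 3. In CPM these were 101.8, 3.34 and 0.0391 in CTC and 0.268, 3.82 and 0.124 in PT. CTC replicate 1 held 94.1% of all Il1a counts, the replicate 2 libraries of both groups were intermediate and alike, and the groups overlapped. Per kilobase, Il1a ranked 1123 among the 13874 genes tested in CTC replicate 1. CTC averaged 35.1 ± 57.8 CPM and PT 1.40 ± 2.09 CPM (SD, n = 3 each). The fitted log2 change was 4.64 (SE 2.19, 95% interval -0.43 to 9.71; edgeR adjusted p = 0.726). Without CTC replicate 1 it was 0.27, and without replicate 1 of both groups it was -0.20. With the replicate block it was 1.96 (edgeR adjusted p = 0.845). Within the matched pairs, the log2 difference was 8.19 for replicate 1, -0.19 for replicate 2 and -0.78 for replicate 3. Gm14023, a transcript on the opposite strand that overlaps Il1a, had 27 counts in all libraries together, at most 9 in any library.

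Il1b encodes IL-1β, which is made as a precursor and needs cleavage, classically by caspase-1 (ENSMUSG00000027398, chromosome 2, 129364570 to 129371139, minus strand). The gene lies beside Il1a. Its counts were 71, 8 and 0 in CTC replicates 1, 2 and 3, and 0 in each PT library. In CPM it was at 2.52 in CTC replicate 1 and 0.333 in CTC replicate 2. The CTC mean of 0.951 ± 1.37 CPM (SD, n = 3) was at least 7.37-fold higher than the level that 3 counts allow in a PT library, where the limit was highest (0.129 CPM). This bound rests on CTC replicate 1, since the mean of CTC replicates 2 and 3 was 0.167 CPM, 1.29 times the limit. Its antisense partner Il1bos had 11 and 5 counts in CTC replicates 1 and 2 and 0 in the other libraries. Nothing states that the counting kept the strand, so reads where the transcripts overlap could belong to either. The 12 other genes within 1 Mb of Il1a whose average log2 CPM reached 3 had a median deviation of -0.26 in CTC replicate 1, on the log2 scale from each gene's mean over the 6 libraries. Il1a itself deviated by 6.09 there and Il1b by 3.80.

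Il1rn, the gene of the IL-1 receptor antagonist, went the other way in that library (ENSMUSG00000026981, chromosome 2, 24336853 to 24351494, plus strand). Its levels were 1.28, 16.7 and 36.7 CPM in CTC replicates 1, 2 and 3, and 28.8, 49.2 and 26.1 CPM in PT replicates 1, 2 and 3. CTC replicates 1 and 2 lay below every PT library and CTC replicate 3 lay within the PT range. CTC averaged 18.2 ± 17.8 CPM and PT 34.7 ± 12.7 CPM (SD, n = 3 each). The log2 fold change was -0.93 (SE 0.91, 95% interval -3.04 to 1.18; edgeR adjusted p = 0.810). It was -0.38 without CTC replicate 1 and -1.95 without CTC replicate 3. Within pairs the log2 difference was -4.41, -1.55 and 0.49 for replicates 1, 2 and 3. The 19 genes around Il1rn had a median deviation of -0.41 in CTC replicate 1, where Il1rn deviated by -3.71. The counts do not separate the secreted form of the antagonist from its intracellular forms.

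Set against each other per kilobase, the antagonist transcript exceeded Il1a in 5 of the 6 libraries. The ratio of Il1rn to Il1a was 0.00448, 1.79 and 335 in CTC replicates 1, 2 and 3, and 38.3, 4.60 and 74.7 in PT replicates 1, 2 and 3. CTC replicate 1 was thus the only library in which the agonist transcript was the more abundant, and CTC replicate 3, with 1 count of Il1a, had the highest ratio of the 6. This ratio was computed after the values had been seen and was not tested.

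The start regions of these genes are shown because Il1a and Il1b, next to each other, were both highest in CTC replicate 1, where Il1rn was lowest. The sequences are RefSeq windows of GRCm38.p6, 250 bases before to 50 after an annotated start, read 5′ to 3′ on the gene's strand. Capitals mark matches to TATAAA or to TGANTCA, the AP-1 motif. They are chr2:129309923-129310222 (minus strand) for Il1a, chr2:129371090-129371389 (minus strand) for Il1b and chr2:24336610-24336909 (plus strand) for the most upstream of 3 Il1rn windows.
Il1a: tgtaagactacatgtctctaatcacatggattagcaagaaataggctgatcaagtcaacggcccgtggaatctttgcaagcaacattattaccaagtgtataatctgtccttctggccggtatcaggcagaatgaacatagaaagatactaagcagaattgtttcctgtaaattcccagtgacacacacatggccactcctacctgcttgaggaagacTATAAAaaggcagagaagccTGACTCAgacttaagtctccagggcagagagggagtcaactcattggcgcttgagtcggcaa
Il1b: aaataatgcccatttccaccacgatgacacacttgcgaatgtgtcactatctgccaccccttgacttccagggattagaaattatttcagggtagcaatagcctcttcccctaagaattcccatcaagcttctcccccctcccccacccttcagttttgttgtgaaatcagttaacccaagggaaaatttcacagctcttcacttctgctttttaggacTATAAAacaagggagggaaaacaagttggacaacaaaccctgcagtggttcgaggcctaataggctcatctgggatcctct
Il1rn: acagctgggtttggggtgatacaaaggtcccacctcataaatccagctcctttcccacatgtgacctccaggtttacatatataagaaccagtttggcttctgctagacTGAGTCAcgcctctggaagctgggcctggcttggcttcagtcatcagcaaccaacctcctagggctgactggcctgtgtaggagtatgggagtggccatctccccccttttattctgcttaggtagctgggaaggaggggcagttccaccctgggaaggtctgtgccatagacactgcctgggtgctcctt
Both agonist genes had TATAAA shortly before the start, 32 bases upstream in Il1a and 31 in Il1b, and Il1a had TGANTCA 12 bases upstream. TATAAA at such a place was not particular to them. An Il33 window (chr19:29945540-29945839) had it 29 bases upstream, and Il33 was highest in PT replicate 3. The Il1rn window shown had TGANTCA 141 bases upstream and no TATAAA. Another Il1rn window (chr2:24345121-24345420) held TATAAA on the opposite strand, 14 bases after its start. Searched on both strands in 32851 such windows, TATAAA was in 13.6%, TGANTCA in 7.81% and the κB consensus of NF-κB in 8.46%. The 8 members had 13 windows, of which 6 held TATAAA, 2 held TGANTCA and 1, an Il1r1 window, held the κB consensus. A match describes the letters alone.

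Il33 encodes IL-33, a nuclear alarm cytokine of epithelial and stromal cells (ENSMUSG00000024810, chromosome 19, 29925114 to 29960718, plus strand). It was scarce but lower in each CTC library, with 26, 5 and 28 counts in CTC replicates 1, 2 and 3, against 40, 43 and 66 counts in PT replicates 1, 2 and 3. In CPM these were 0.923, 0.208 and 1.10 in CTC and 1.53, 1.85 and 2.74 in PT, so the groups did not overlap. Of all genes tested, 6.16% lay lower in every CTC library. CTC averaged 0.742 ± 0.470 CPM and PT 2.04 ± 0.626 CPM (SD, n = 3 each). The log2 fold change was -1.45 (SE 0.70, 95% interval -3.06 to 0.17; edgeR adjusted p = 0.726). The difference was negative within each of the 3 matched pairs, at -0.69, -2.74 and -1.26. Leaving out single libraries or pairs gave values from -1.84 to -1.02, none past the threshold.

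Il18 encodes IL-18, which like IL-1β is released after cleavage by caspase-1 (ENSMUSG00000039217, chromosome 9, 50554827 to 50581840, plus strand). It was near the counting limit, with 17, 17 and 26 counts in CTC replicates 1, 2 and 3, and 12, 3 and 16 counts in PT replicates 1, 2 and 3. In CPM the values were 0.604, 0.709 and 1.02 in CTC and 0.460, 0.129 and 0.664 in PT. Only CTC replicate 1 fell within the PT range, just below PT replicate 3. The log2 fold change was 0.88 (SE 0.72, 95% interval -0.78 to 2.55; edgeR adjusted p = 0.787), and the difference was positive in each of the 3 pairs, at 0.34, 1.92 and 0.56. Il18bp, which encodes a secreted binding protein that traps IL-18, was at 1.38, 1.08 and 5.24 CPM in the CTC libraries, against 2.65, 2.45 and 2.45 CPM in the PT libraries, where the libraries were nearly alike.

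Il1r1, the signalling receptor of IL-1α and IL-1β, was expressed in every library (ENSMUSG00000026072, chromosome 1, 40225080 to 40317257, plus strand). It was at 18.6, 22.9 and 57.1 CPM in CTC replicates 1, 2 and 3, and at 25.6, 19.8 and 46.3 CPM in PT replicates 1, 2 and 3. The replicate 3 libraries of both groups were the highest, the groups overlapped, and the lowest library was CTC replicate 1. The log2 fold change was 0.11 (SE 0.51, 95% interval -1.08 to 1.29; edgeR adjusted p = 0.965). It changed sign when CTC replicate 3 (-0.56), PT replicate 2 (-0.14) or PT replicate 1 (-0.004) was left out.

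Il1rap, the accessory chain shared by the receptors of IL-1 and IL-33, varied least of the 8 (ENSMUSG00000022514, chromosome 16, 26581704 to 26730117, plus strand). It was at 52.1, 22.7 and 50.8 CPM in CTC replicates 1, 2 and 3, and at 29.7, 53.1 and 24.0 CPM in PT replicates 1, 2 and 3. High and low libraries occurred in both groups. The log2 fold change was 0.23 (SE 0.44, 95% interval -0.77 to 1.24; edgeR adjusted p = 0.893). The per-kilobase ratio of Il1r1 to Il1rap lay between 0.639 and 2.01 in CTC and between 0.665 and 3.44 in PT, so transcripts of both chains of the IL-1 receptor were present in all 6 libraries.

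Il1rl1, the IL-33 receptor ST2, was low (ENSMUSG00000026069, chromosome 1, 40429570 to 40465415, plus strand). Its counts were 109, 73 and 14 in CTC replicates 1, 2 and 3, and 33, 34 and 3 in PT replicates 1, 2 and 3. These were 3.87, 3.04 and 0.548 CPM in CTC and 1.27, 1.46 and 0.124 CPM in PT. The replicate 3 library was the lowest in both groups, and each CTC library lay above its matched PT library, with log2 differences of 1.55, 1.02 and 1.62. The groups overlapped without regard to pairs, and the log2 fold change was 1.38 (SE 0.98, 95% interval -0.88 to 3.65; edgeR adjusted p = 0.757). With the replicate block it was 1.54 (edgeR adjusted p = 0.766). Gene counts do not separate the membrane receptor from its soluble decoy form.

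**Figure D2:**
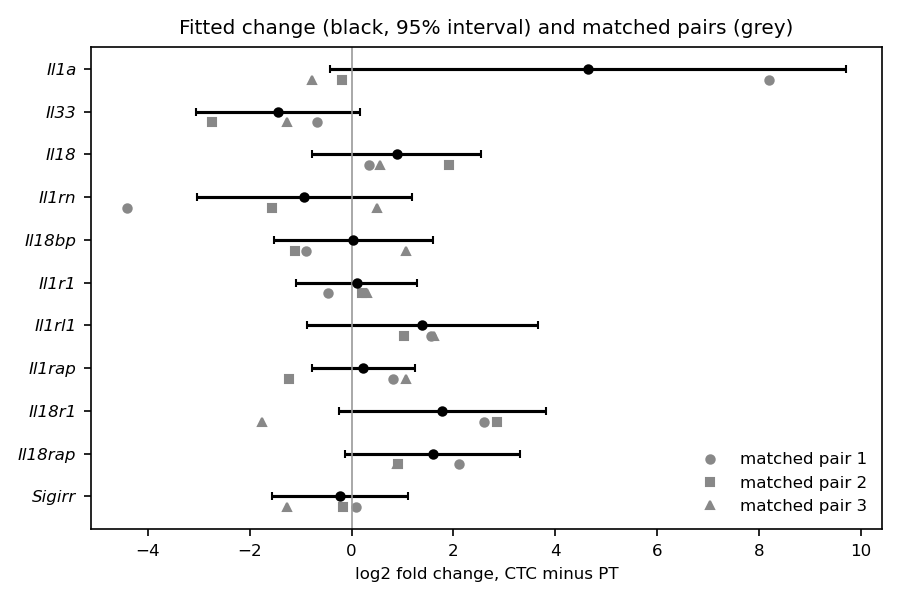
Log2 fold change, CTC minus PT, for the 7 tested members and 4 further tested family genes, with the fitted value and its 95% interval in black and the difference of each matched pair in grey. Every interval includes 0, and the widest is that of Il1a, from -0.43 to 9.71.

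Il1rl1 lies on chromosome 1 in a cluster of receptor genes, in the order Il1r2, Il1r1, Il1rl2, Il1rl1, Il18r1 and Il18rap, of which 4 were expressed here. Il18r1 and Il18rap encode the chains of the IL-18 receptor, and the start of Il18r1 is 0.137 kb from the end of Il1rl1. Il18r1 was at 63.4, 29.9 and 4.03 CPM in CTC replicates 1, 2 and 3, and at 10.4, 4.08 and 13.8 CPM in PT replicates 1, 2 and 3. Il18rap was at 60.9, 23.1 and 8.10 CPM in the CTC libraries, against 14.0, 12.2 and 4.32 CPM in the PT libraries. For both, CTC replicates 1 and 2 lay above all PT libraries and CTC replicate 3 did not. Their log2 fold changes were 1.78 (SE 0.88; edgeR adjusted p = 0.726) and 1.59 (SE 0.74; edgeR adjusted p = 0.726). Without CTC replicate 1 they were 0.86 and 0.62.

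The order of the libraries differed along the cluster. Il1r1 was lowest in CTC replicate 1 and highest in CTC replicate 3, the reverse of Il18r1 within the CTC group. Il1r2, a decoy receptor for IL-1, had 6, 9 and 0 counts in the CTC libraries, against 0, 3 and 0 in the PT libraries, highest in CTC replicates 1 and 2 as were Il1rl1 and Il18r1. Il1rl2, the IL-36 receptor, had 3 counts in all, from CTC replicate 2. The 3 other genes within 1 Mb of Il18r1 whose average log2 CPM reached 3 had a median deviation of 0.67 in CTC replicate 1, where Il18r1 deviated by 2.29, Il18rap by 2.09 and Il1rl1 by 1.70. In CTC replicate 2 the same neighbours stood at -0.09, with Il18r1 at 1.21 and Il1rl1 at 1.36.

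**Figure D3:**
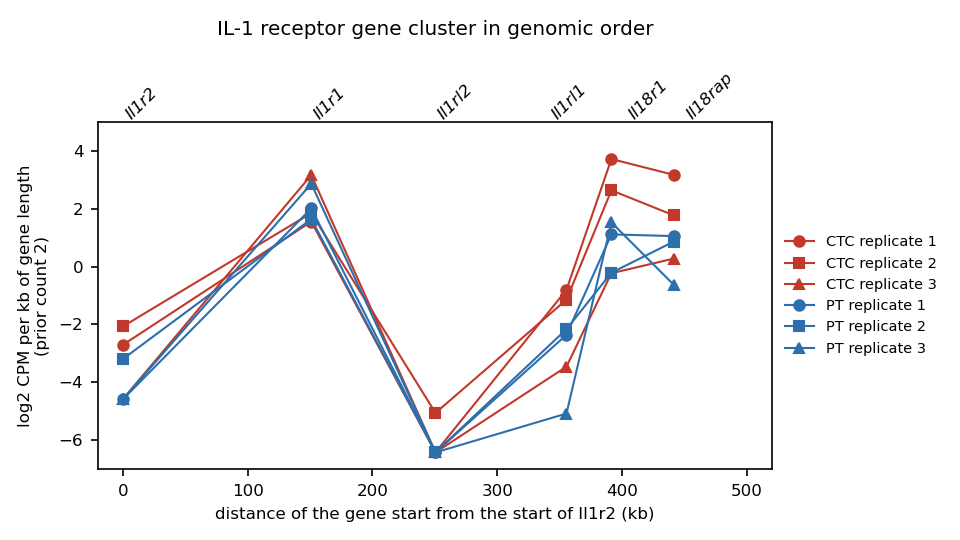
Level of the 6 genes of the receptor cluster in genomic order, as log2 CPM per kilobase of gene length (prior count 2) against the distance of each gene start from that of Il1r2 in kb, with CTC in red and PT in blue. The libraries lie close together at Il1r1 and spread at Il1rl1, Il18r1 and Il18rap, where CTC replicates 1 and 2 are the highest.

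The rest of the family was largely silent. Of the 17 symbols listed, 13 matched a gene in the table (the other 4 are newer names of listed genes), and 4 of these were tested, with 0 called. Sigirr, an inhibitory receptor of the family, ran between 4.69 and 21.5 CPM in CTC and between 11.4 and 22.4 CPM in PT, lowest in the replicate 3 library of both. Of the IL-36 group, Il1f5 (the IL-36 receptor antagonist) had 36 counts in CTC replicate 3 and 5 in PT replicate 2, and Il1f6 (IL-36α) had 17 counts in PT replicate 2 and 2 in CTC replicate 1. Il1f10, Il1rapl1 and Il1rapl2 had 0 counts in every library. The log2 fold changes of the 4 tested genes ran from -0.23 to 1.78, with a median of 0.81 (0.47 without CTC replicate 1), against 0.05 over all genes tested.

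Genes that process or release these cytokines were uneven, and several inflammasome genes were nearly absent. Of 15 such genes that the table held, the filter left 9, with 0 called, 5 with a positive and 4 with a negative fold change, and a median log2 fold change of 0.23 (-0.10 without CTC replicate 1, -0.19 without PT replicate 3 and -0.01 without CTC replicate 3). Casp1, the protease that matures IL-1β and IL-18, was at 6.82, 4.13 and 33.1 CPM in the CTC libraries, against 24.1, 21.2 and 24.2 CPM in the PT libraries. CTC replicates 1 and 2 lay well below the narrow PT range and CTC replicate 3 above it. The log2 fold change was -0.66 (SE 0.71; edgeR adjusted p = 0.827), and -2.09 without CTC replicate 3.

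Other genes of this list also varied widely between CTC libraries. Casp4, the mouse caspase-11 gene of the non-canonical inflammasome, was at 6.96, 0.709 and 5.99 CPM in the CTC libraries, against 1.88, 3.91 and 0.788 CPM in the PT libraries. Aim2, a sensor of cytosolic DNA, had 0, 17 and 326 counts in the CTC libraries, against 131, 160 and 264 in the PT libraries. CTC replicate 1 thus had no detectable Aim2, which allows up to 0.107 CPM there, while CTC replicate 3 was the highest library. Gsdmd, which encodes the pore protein gasdermin D, was at 10.8, 1.88 and 9.66 CPM in the CTC libraries, against 9.47, 7.47 and 2.16 CPM in the PT libraries. Pycard, the inflammasome adaptor, had at most 11 counts in any library, and the sensor gene Nlrp3 at most 7.

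The signalling chain below the receptors was expressed in all libraries, apart from the inhibitory kinase gene Irak3, with at most 17 counts. Of its 19 genes 18 were tested, with 0 called, and the median log2 fold change was 0.11, or 0.24 with CTC replicate 3 left out and 0.18 with PT replicate 2 left out. Myd88, the adaptor, was at 24.4, 40.4 and 61.8 CPM in the CTC libraries, against 41.8, 66.1 and 50.3 CPM in the PT libraries. Irak4, the first kinase of the complex, had CTC and PT means of 18.6 ± 0.939 and 15.1 ± 2.66 CPM (SD, n = 3 each). Irak1, its substrate kinase, had CTC and PT means of 116 ± 29.9 and 92.4 ± 27.2 CPM. Traf6, the ubiquitin ligase that they activate, had CTC and PT means of 32.3 ± 6.66 and 31.3 ± 6.16 CPM. Ube2n, the ubiquitin-conjugating enzyme that works with Traf6, shared the list's smallest adjusted p with Irak2, 0.726 in edgeR, with CTC and PT means of 143 ± 21.6 and 91.8 ± 11.7 CPM. Irak2 and Tab3 had log2 fold changes of -0.76 and 0.70, neither past the threshold. Irak4, Ube2n and Tollip, an inhibitor of the pathway, did not overlap between the groups, 3 of 18 (Tollip lower in CTC), against 12.1% of all genes tested.

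Genes known to be induced by IL-1 were mostly highest in CTC replicate 1, the library with high Il1a. Of 18 listed genes 15 were tested, and 11 of these (73.3%) were highest in CTC replicate 1, against 24.6% of all genes tested. The other lists also exceeded that share, with 44.4% of the signalling genes tested, 44.4% of the processing genes and 50% of the 4 other family genes. In 7 of the 15 (46.7%) CTC replicate 1 was at least 2-fold above every other library, against 3.10% of all genes tested. The list was chosen with earlier results of these data known, and this count describes one library and carries no test. The list's median deviation by library was 1.55, -0.35 and -0.37 in CTC replicates 1, 2 and 3, and -0.39, 0.54 and -0.56 in PT replicates 1, 2 and 3, on the log2 scale.

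Feedback inhibitors of NF-κB were among the genes highest there. Tnfaip3, which encodes the deubiquitinase A20, was at 309.7, 69.0 and 32.3 CPM in the CTC libraries, against 19.8, 60.5 and 25.8 CPM in the PT libraries. Nfkbia, which encodes IκBα, was at 113.6, 57.1 and 37.9 CPM in the CTC libraries, against 37.4, 44.9 and 19.3 CPM in the PT libraries. Replicate 2 of both groups stood next below CTC replicate 1 for both genes. Their log2 fold changes were 1.95 (SE 0.83; edgeR adjusted p = 0.726) and 1.04 (SE 0.48; edgeR adjusted p = 0.726), and without CTC replicate 1 they were 0.52 and 0.49.

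Ptgs2, the cyclooxygenase-2 gene, was at 1258 CPM in CTC replicate 1, at 126.4 and 48.1 CPM in CTC replicates 2 and 3, and at 142.4, 111.3 and 10.8 CPM in PT replicates 1, 2 and 3. The neutrophil chemokine gene Cxcl1 was at 424.3, 70.2 and 124.4 CPM in the CTC libraries, against 78.9, 329.1 and 194.5 CPM in the PT libraries, so PT replicate 2 came near CTC replicate 1. Cxcl2, a related chemokine gene, was at 9.66, 0.375 and 2.86 CPM in the CTC libraries, against 2.30, 7.55 and 2.78 CPM in the PT libraries. The cytokine gene Il6 was low, with 71, 8 and 8 counts in the CTC libraries, against 12, 16 and 1 in the PT libraries. There were 3 listed targets that did not pass the filter. Csf2, the GM-CSF gene, had 140, 1 and 1 counts in the CTC libraries, against 0, 5 and 2 in the PT libraries. The adhesion gene Icam1 had 54, 0 and 4 counts in the CTC libraries, against 3, 0 and 2 in the PT libraries. The monocyte chemokine gene Ccl2 was highest in CTC replicate 3 instead, with 1, 2 and 337 counts in the CTC libraries, against 69, 2 and 0 in the PT libraries.

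Of the 15 tested targets, 4 were highest in another library. Csf3, the G-CSF gene, was at 307.5, 83.5 and 55.9 CPM in the CTC libraries, against 192.7, 770.9 and 142.5 CPM in the PT libraries, highest in PT replicate 2 (log2 fold change -1.31; edgeR adjusted p = 0.735). Saa3, an acute-phase gene, was highest in CTC replicate 2, at 11.4, 612 and 61.3 CPM in the CTC libraries, against 5.87, 209 and 19.3 CPM in the PT libraries. Mmp3, a matrix metalloproteinase gene, was highest in CTC replicate 3, with 31, 6 and 431 counts in the CTC libraries, against 126, 64 and 36 in the PT libraries. Lcn2, which encodes lipocalin-2, was highest in PT replicate 2 and lowest in CTC replicate 1, at 252.4, 727.9 and 777.3 CPM in the CTC libraries, against 614.6, 4158 and 1198 CPM in the PT libraries.

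Between the groups, the targets had a median log2 fold change of 1.00, which was -0.20 without CTC replicate 1, against 0.05 over all genes tested. The test called 0 of the 15. DESeq2 with the replicate block, which called 1.72% of genes, called 3 of the list. These were Ptgs2 (adjusted p = 0.0445) and Saa3 (adjusted p = 0.00845), both higher in CTC, and Lcn2 (adjusted p = 0.0397), lower in CTC. edgeR without a filter, which called 0.728% of genes, called Tnfaip3 alone (adjusted p = 0.0461).

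**Figure D4:**
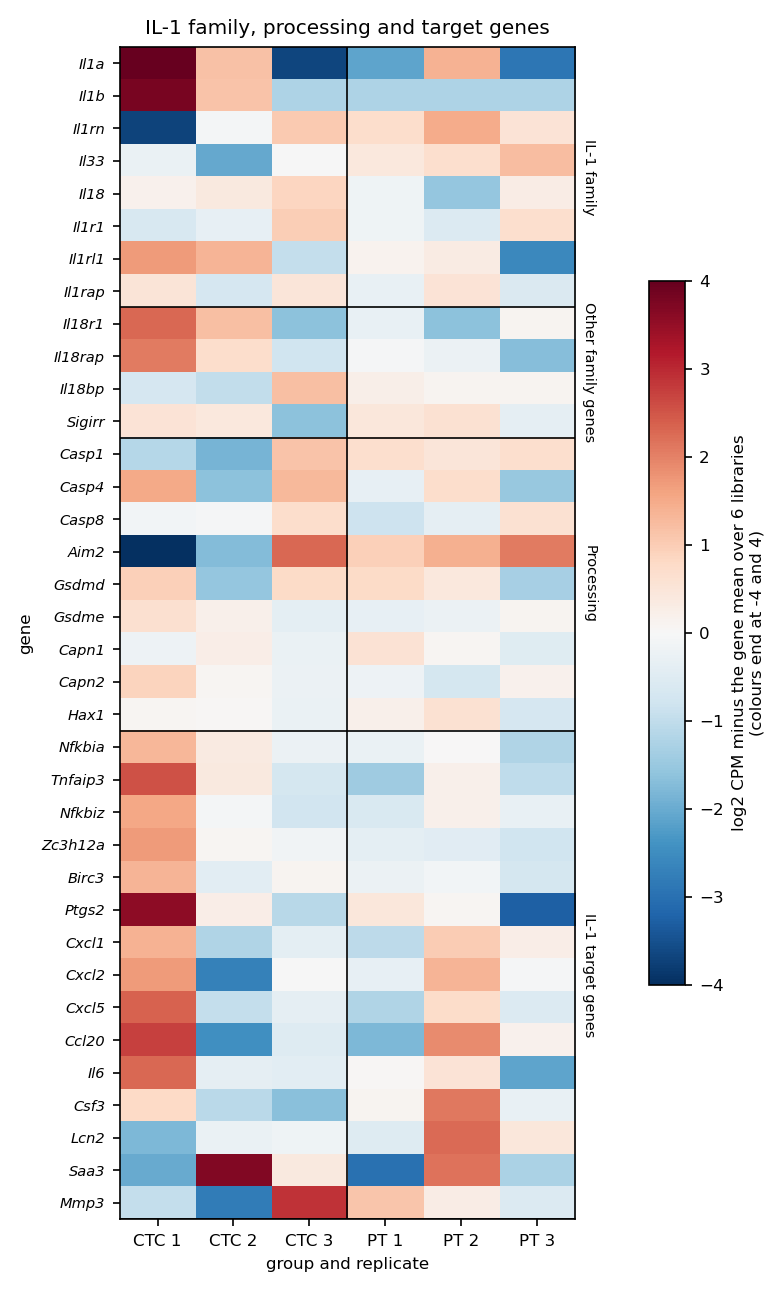
Deviation of each gene from its own mean over the 6 libraries, in log2 CPM, for the 8 members and the tested genes of the other family, processing and IL-1 target lists, with CTC columns left of PT columns and colours ending at -4 and 4. In CTC replicate 1, Il1a (6.09), Il1b (3.80) and most targets are above their means while Il1rn (-3.71) is below.

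For members that spanned at least 2 log2 units, the protein-coding genes of most like pattern were sought by the root mean square difference between centred log2 CPM profiles over the 6 libraries. Among 9395 or 9396 genes (the member itself left out) whose average log2 CPM reached 3, Il1a was nearest to Myo5c (0.93), Rgs16 (1.19) and Eno3 (1.33), all highest in CTC replicate 1. Il1rn was nearest to Zfp503, at 0.13, which was at 0.888, 10.6 and 29.2 CPM in the CTC libraries, against 21.2, 33.3 and 16.0 CPM in the PT libraries. Il33 was nearest to Clmn (0.22) and Il18 to Mtr (0.20). With 6 libraries and so many genes such neighbours always exist, and the distances are a description.

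The 8 epithelial markers summed to 2828 to 8419 CPM in CTC and 5437 to 6836 CPM in PT, mostly from Krt7, Krt8 and Krt18. Among them, Krt19 had 2452, 1969 and 0 counts in the CTC libraries, against 129, 472 and 0 in the PT libraries. Leukocytes are a usual source of IL-1β, and their marker genes were uneven. Adgre1, C1qa, C1qb, C1qc and Cx3cr1 of macrophages and Ly6g and Retnlg of neutrophils had 0 counts in all libraries, and Ptprc, the common leukocyte antigen gene, reached at most 0.268 CPM. The 10 macrophage and monocyte markers, 5 of them detected, summed to 11.6, 23.9 and 4.42 CPM in the CTC libraries, against 4.14, 5.07 and 1.20 CPM in the PT libraries, mostly from Csf1r and Cd68. Csf1r, the receptor gene for macrophage colony-stimulating factor, had 157, 488 and 5 counts in the CTC libraries, against 2, 32 and 2 in the PT libraries, so it was highest in the 2 libraries that had Il1b reads. Csf1r was higher in CTC in each of the 3 pairs, by 5 against 2 counts in pair 3, but the groups overlapped. Its log2 fold change was 4.09 (edgeR adjusted p = 0.726). The adjusted p was 0.762 in edgeR with the replicate block, 0.735 in limma-voom and 0.453 in DESeq2. In DESeq2 with the replicate block it was 0.000895, and in edgeR without a filter 0.0358. Of the 9 neutrophil markers 7 were detected, with sums of 1.46 to 27.4 CPM in CTC and 4.52 to 20.7 CPM in PT, mostly from S100a8, at 25.3 CPM in CTC replicate 3 and 15.2 CPM in PT replicate 2. The 6 general leukocyte markers, 5 detected, summed to 1.42 to 13.5 CPM in CTC and 6.31 to 8.32 CPM in PT, with Cytip at 13.0 CPM in CTC replicate 3. The neutrophil and general leukocyte sums were lowest in CTC replicate 1 and highest in CTC replicate 3, mostly through S100a8 and Cytip. Of the other markers, Cd53 and Cxcr2 had 5 and 12 counts in CTC replicate 3, and the same counts in PT replicate 1. Coro1a was highest in CTC replicate 2, and Ptprc, Ikzf1 and Ngp in PT replicate 1. S100a9, Mpo, Elane and Camp were highest in PT replicate 2. The macrophage sum in CTC replicates 1 and 2 was higher than in every PT library. In CTC replicate 2 this rested on Csf1r, with 20.3 of the 23.9 CPM. Cd68 was at 4.51, 3.17 and 3.56 CPM in the CTC libraries, against 2.88, 3.39 and 1.08 CPM in the PT libraries. Mrc1 reached at most 1.46 CPM, and Lyz2 and Fcgr1 had 1 and 5 counts in all libraries together. The part of these cells in the Il1a, Il1b and Il1rn levels was not tested.

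For mast cells, basophils and innate lymphoid cells, which carry Il1rl1, 5 of 9 markers were detected, with sums of 3.37 to 7.71 CPM in CTC and 5.87 to 72.8 CPM in PT. Cpa3, Tpsb2, Fcer1a and Mcpt4 had 0 counts. Mcpt8, a protease gene of basophils, was at 0.604, 0.917 and 0.156 CPM in the CTC libraries, against 2.45, 70.7 and 11.3 CPM in the PT libraries. It was lower in every CTC library, with a log2 fold change of -5.64 (edgeR adjusted p = 0.726; DESeq2 adjusted p = 0.00839, and 2.02e-07 with the replicate block; edgeR without a filter, adjusted p = 0.000105). Gata3 and Kit, also of this list, differed in direction between the pairs. Gata3 had a log2 fold change of 0.97 (edgeR adjusted p = 0.793), with log2 differences of -0.20, 1.72 and 3.00 within pairs 1, 2 and 3. Kit was highest in CTC replicate 3, at 5.52 CPM, against at most 0.901 CPM in PT. Its log2 differences within pairs 1, 2 and 3 were -2.54, -1.57 and 4.78. In pairs 1 and 2 it was thus lower in CTC, as was Mcpt8. Ms4a2 and Hpgds had 4 and 13 counts in all. The part of these cells in the Il33 and Il1rl1 levels was not tested. Of 7 T and NK cell markers 3 were detected, with sums of at most 0.509 CPM in CTC and 2.26 CPM in PT. The 7 endothelial markers, all detected, summed to 0.313 to 3.73 CPM in CTC and 0.249 to 1.73 CPM in PT. The 8 fibroblast markers, 7 detected, summed to 8.91, 60.0 and 165 CPM in the CTC libraries, against 76.1, 18.2 and 43.8 CPM in the PT libraries. Col3a1 made 125 CPM of the sum in CTC replicate 3. The tested markers had log2 fold changes of -2.35 (Col1a1), -0.64 (Dcn), 0.05 (Pdgfrb), 0.54 (Pdgfra) and 2.17 (Col3a1), none past the threshold. Col1a1 was lower in CTC within each matched pair. The part of fibroblasts in the Il33 levels was not tested. Of 6 adipocyte markers 5 were detected, with sums of at most 3.72 CPM in CTC and 1.46 CPM in PT.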

How the data were processed

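The deposited file was 1 table of whole-number read counts per Ensembl gene, with each gene's length and coordinates. Per the submitters' processing notes, the tools included the aligner HISAT2, with no version, and the builds listed were GRCm38 and mm10. No source used here gives the read counter, its strand setting or the annotation. All 8 members had the same start and end in GENCODE M21, an annotation of GRCm38. Per the labels' protocols, 100 ng of total RNA entered an mRNA library kit.

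The deposited counts were tested with edgeR (version 4.0.16, R version 4.3.3) by glmQLFit and glmQLFTest, with TMM factors and filterByExpr by group at its defaults. Standard errors came from the F statistic. CPM used the filtered library totals and TMM factors, log2 CPM a prior count of 2, and CPM per kb the deposited gene length. DESeq2 (version 1.42.0) and limma-voom (limma version 3.58.1) were alternatives, and the fits were tested on simulated data. The simulated libraries of a group were given little spread, so this checked the code. It does not show how many changes the fits would miss or call wrongly at the spread seen here. Limits from a count of 0 cover counting error only, and no source used here mentions molecular identifiers. Any 2 libraries differed far beyond sampling noise (chi-square per degree of freedom of 100.1 or more).

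Each PT title names the CTC library it is matched with, per the labels, and the design text speaks of matched mice, which pairs the samples. Across genes, their deviations from the group means had correlations of -0.015 (replicate 1), 0.157 (replicate 2) and 0.297 (replicate 3). The main test left the pairs out. Whether libraries of a group were separate cultures is not known here, so p-values measure the spread between these libraries. The members and lists were chosen with earlier results of these data known. Named were all 8 members, other family genes with at least 10 counts in a library, and for each further list the 3 largest fold changes, any gene called by edgeR or DESeq2, and a set of core genes. Tollip, Saa3, Irak3, Csf2, Csf3, Ccl2, Mmp3, Icam1 and the genes with under 10 counts were named after their values were seen. The genes of most like pattern to Il1rl1 are not reported here.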

Additional observations from a re-analysis of the deposited data

How the results depend on the processing

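The numbers of genes called and the log2 fold changes of 29 genes, the 7 tested members among them, were recomputed under 17 alternatives; ratios, marker sums and other descriptions were not. The number of genes called between CTC and PT was 0 in the main test and 0 with a replicate block, limma-voom, RLE or upper-quartile scaling, a filter of 1 CPM in 3 libraries, and without any library or matched pair (range 0 to 0). It was 89 in DESeq2, 242 in DESeq2 with the replicate block and 199 without a filter on low counts. The number of members called was 2 without that filter and 0 in the other alternatives, and the number of further list genes called was 3 in DESeq2 with the replicate block, 1 without the filter and 0 in the others; the cause was not tested. The block changed no other call. DESeq2 gave no adjusted p for Il1a, and Il1a could not be fitted without replicate 2 of both groups because it did not pass the filter; Il18 likewise under the filter of 1 CPM, and Il6 in 2 of the alternatives.

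Some log2 fold changes changed sign, most of them near 0 but also those of Il1a (4.64), Ptgs2 (2.44) and Il6 (1.41), whose size rested on CTC replicate 1. With the replicate block, DESeq2 with the block and limma-voom they were -0.35, -0.37 and -0.33 for Il18bp, -0.25, -0.27 and -0.15 for Cxcl1, and -0.43, -0.47 and -0.65 for Cxcl2. With upper-quartile scaling they were -0.003 for Cxcl1 and -0.015 for Cxcl2, and in DESeq2 with the block -0.006 for Il1r1. Without single libraries, the ranges were -0.56 to 0.53 for Il1r1, -1.02 to 0.40 for Il18bp, -0.54 to 0.20 for Sigirr, -0.19 to 0.67 for Gsdmd, -0.14 to 0.15 for Traf6, -0.013 to 2.97 for Ptgs2, -1.05 to 0.57 for Cxcl1, -1.38 to 0.73 for Cxcl2 and -0.29 to 2.01 for Il6. Without replicate 1 of both groups they were -0.20 for Il1a, -0.047 for Il1rap, -0.02 for Irak1, -0.001 for Traf6, -1.41 for Cxcl1 and -1.65 for Cxcl2. Without replicate 3 of both groups they were -0.13 for Il1r1, -0.15 for Il1rap, -1.05 for Il18bp, -0.42 for Gsdmd and -0.035 for Traf6. The others of the 29 genes kept their direction in every alternative that could be fitted. Il18, Il33 and Il1b had at most 71 counts in any library, so their levels also carry counting error. With this spread between 3 libraries per group, smaller differences in any member could be missed.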
